A study of Homo sapiens with 5 samples.

Results

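The sites described here are 330 places in the genome that were listed by all 3 chromatin immunoprecipitation (ChIP-seq) peak lists of the series. Each is a LNCaP peak of H3T6ph, the mark left by phosphorylation of histone H3 on threonine 6, that shares at least 1 base with an LSD1 peak in LNCaP cells and also with an LSD1 peak in VCaP cells. They are 330 of the 4429 H3T6ph peaks on chromosomes 1 to 22 and X, or 7.45% (95% Wilson interval 6.71 to 8.26). In the other direction they take in 332 of 11654 LNCaP LSD1 peaks (2.85%, interval 2.56 to 3.17) and 330 of 9814 VCaP LSD1 peaks (3.36%, interval 3.02 to 3.74). The sites were chosen by the positions of the peaks in these lists, so scores, widths and overlaps are given as description without a test.

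LSD1, the product of KDM1A, is a demethylase that removes methyl groups from lysine 4 of histone H3 and is part of the CoREST and NuRD complexes. In prostate cells it is also known for its part in the transcription of genes that respond to androgen. Threonine 6 lies close to lysine 4 on the same histone tail, and its phosphorylation by protein kinase C is known to hinder demethylation of lysine 4 by LSD1. A site with the mark in LNCaP and with LSD1 in both lines is therefore a place where the enzyme and a mark that alters its activity were both listed.

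LNCaP was derived from a lymph node metastasis and VCaP from a vertebral metastasis of human prostate cancer. The 5 samples were H3T6ph ChIP in LNCaP, LSD1 ChIP in LNCaP, LSD1 ChIP in VCaP, RNA from LNCaP transfected with an siRNA against LSD1, and RNA from LNCaP transfected with a control siRNA. The ChIP cells were not transfected. All cells spent 3 days in charcoal-stripped serum, which is low in steroids, before a hormone stimulus that the labels do not name. Each group is 1 sample, so no value has an error between replicates. H3T6ph in VCaP and expression in VCaP were not analysed here. In the RNA libraries KDM1A was at 6.87 FPKM (fragments scaled by transcript length and library depth) with LSD1 siRNA and at 37.0 FPKM with control siRNA, 18.6% of control. In bulk RNA, fewer expressing cells and less RNA per cell cannot be told apart. The luminal prostate markers were present in both libraries, among them the luminal keratin gene KRT8 at 718 FPKM with LSD1 siRNA and 929 FPKM with control siRNA. The basal markers KRT5 and TP63 were under 1 FPKM in both and KRT17 was listed at 0, while ITGA6 and LAMB3 were above 1 FPKM. The depth of the ChIP samples is unknown, since the lists give no read totals, and the intervals on shares cover counting error only.

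The sequences below belong to genes whose start, taken as an end of the gene interval, lies at a shared site. They are shown because a start inside a shared site is the place where the mark and LSD1 sit closest to a promoter. Of the 32 genes with an end of their interval within 1 kb of a shared site, 13 had RefSeq promoter entries and a strand that made that end the start. They had 17 promoter entries among them. The position of each entry was not itself compared with the site, so an entry of a gene with several can lie elsewhere. Each entry runs from 250 bases before to 50 bases after the start, 5′ to 3′ on the gene's strand, in RefSeq's GRCh38.p14, while the site positions are those of hg19. Capitals mark a match to AGAACA, 1 arm of an androgen response element. CDHR3 encodes a cadherin-related protein and lies on chromosome 7 (+ strand, site chr7:105603350-105603999). MTF2 encodes a Polycomb-like protein and lies on chromosome 1 (+ strand, site chr1:93544442-93544922). TMTC3 encodes an endoplasmic reticulum mannosyltransferase and lies on chromosome 12 (+ strand, site chr12:88535571-88536268).
CDHR3: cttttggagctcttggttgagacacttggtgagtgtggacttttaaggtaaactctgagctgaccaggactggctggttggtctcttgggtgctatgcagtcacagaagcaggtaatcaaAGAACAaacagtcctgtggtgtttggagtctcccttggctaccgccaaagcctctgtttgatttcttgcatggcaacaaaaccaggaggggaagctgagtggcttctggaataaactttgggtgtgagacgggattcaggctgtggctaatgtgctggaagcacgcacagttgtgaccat
MTF2: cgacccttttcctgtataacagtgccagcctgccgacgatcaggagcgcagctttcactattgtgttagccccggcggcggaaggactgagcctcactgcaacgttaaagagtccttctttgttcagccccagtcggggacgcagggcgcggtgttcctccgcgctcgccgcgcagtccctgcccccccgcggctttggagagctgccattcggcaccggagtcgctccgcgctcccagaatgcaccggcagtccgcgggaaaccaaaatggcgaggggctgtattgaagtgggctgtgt
TMTC3: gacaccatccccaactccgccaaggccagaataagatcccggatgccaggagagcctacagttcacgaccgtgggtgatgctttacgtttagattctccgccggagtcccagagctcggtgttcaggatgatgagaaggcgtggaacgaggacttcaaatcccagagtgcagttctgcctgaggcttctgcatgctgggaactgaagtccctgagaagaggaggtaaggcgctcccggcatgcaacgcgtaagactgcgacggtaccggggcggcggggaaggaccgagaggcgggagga

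The AGAACA letters were found on either strand in 1 of the 17 entries, that of CDHR3, and in 14.8% of all 34961 promoter entries of the same length. The full androgen response element, a palindrome that contains AGAACA, was in 0 of the 17 and in 0.00286% of all. The forkhead letters TGTTTAC were in 0 of the 17 against 3.42% of all, the NFI palindrome in 0 against 0.0286%, the ETS letters GGAAGTG in 0 against 11.3% and the E-box CCACGTGG in 0 against 0.924%. GATA preceded by A or T and followed by A or G was in 4 of the 17 entries, against 24.9% of all. These 4 entries belong to CCDC200 and ZKSCAN5 only. The 17 entries are not separate promoters, since some genes have more than 1 and some windows overlap. The median GC content was 63.0% in the 17 entries and 58.7% in all. These are matches of letters in a 300-base window of the start and not of the peak itself.

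A pair of microRNA genes of the same name family also had shared sites. MIR663A has an end of its gene interval in a shared site on chromosome 20 (chr20:26188522-26190350) and MIR663B shares its gene interval with ANKRD30BL, which holds a pair of shared sites on chromosome 2. RefSeq's mature sequences are shown because the names imply kinship, with the seed (bases 2 to 8) in capitals.
hsa-miR-663a: aGGCGGGGcgccgcgggaccgc
hsa-miR-663b: gGUGGCCCggccgugccugagg
The seeds differ, so the pair forms no seed group. Both intervals held a wide site, of 1829 bases for MIR663A, with scores of 169 for H3T6ph, 274 for LNCaP LSD1 and 835 for VCaP LSD1, and of 2039 bases for MIR663B (chr2:133011611-133013649).

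The shared sites covered the whole range of scores. The score is the authors' own value per peak, with a lowest value of 50 and a scale that is not given in the sources used here, and it ranks peaks within a list. H3T6ph scores at the 330 sites had a lowest value of 50.2, a median of 79.2 and a highest value of 1731. The median was 63.1 at the 338 H3T6ph peaks that met LNCaP LSD1 without VCaP LSD1, 72.7 at the 804 that met VCaP LSD1 without LNCaP LSD1, and 57.9 at the 2957 that met neither. LNCaP LSD1 peaks had a median score of 82.5 at shared sites and 66.3 elsewhere. VCaP LSD1 peaks had a median of 79.3 at shared sites and 60.0 elsewhere. Against the median of each whole list, 257 sites (77.9%) were above it for H3T6ph, 239 (72.4%) for LNCaP LSD1 and 262 (79.4%) for VCaP LSD1. The upper 5% of all 3 lists held 25 sites (7.58%) together, and 207 sites (62.7%) were in the upper 5% of no list.

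Scores varied together only in part. Over the 330 sites the Spearman correlation was 0.43 between H3T6ph in LNCaP and LSD1 in VCaP, 0.30 between LSD1 in both lines, and 0.26 between H3T6ph and LSD1 in LNCaP. The points share the same 3 libraries and their depth, so these are descriptions. The differences between these coefficients were not tested.

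**Figure D1:**
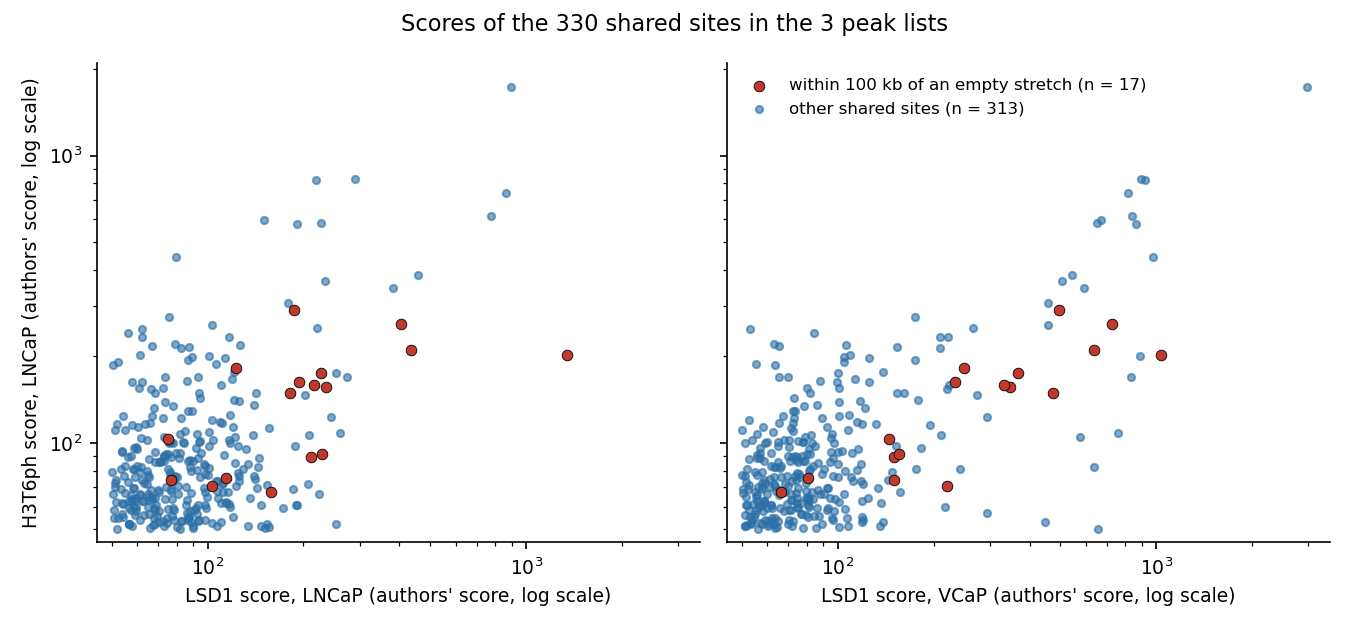
H3T6ph score in LNCaP (vertical axis) against the LSD1 score in LNCaP (left) and in VCaP (right) at the 330 shared sites, both axes logarithmic and in the authors' units. Red points are the 17 sites within 100 kb of an empty stretch of a chromosome and blue points the other 313; most points gather under 200, and the site inside HFM1 stands at the top with an H3T6ph score of 1731.

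No list of problem regions of the genome was applied to any site. Of the 10 sites with the highest mean percentile over the lists, 5 lay inside a gene. The first of them (chr1:91852677-91853251), inside HFM1, a meiotic helicase gene, scored 1731 for H3T6ph, 895 for LNCaP LSD1 and 2977 for VCaP LSD1. A site inside DLG2, a synaptic scaffold gene (chr11:85194905-85195306), scored 616 for H3T6ph, 775 for LNCaP LSD1 and 841 for VCaP LSD1. The site inside PID1 (chr2:230045381-230045748) had H3T6ph, LNCaP LSD1 and VCaP LSD1 scores of 582, 227 and 653. The site inside UNC45B, a myosin chaperone gene (chr17:33477930-33478725), had 345, 381 and 594 in these lists, and PDE3A, a phosphodiesterase gene, held the fifth (chr12:20704252-20704613).

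The other 5 of the 10 lay outside genes. A site 130 kb from CARTPT, a neuropeptide gene (chr5:71146632-71147052), had H3T6ph, LNCaP LSD1 and VCaP LSD1 scores of 823, 218 and 922. Another 3 lay 782 kb from ZNF733P (chr7:61968538-61969785), 439 kb from UBE2MP1 (chr16:33962431-33964477) and 86.8 kb from BAGE5 (chr21:11185772-11186919).

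At the low end stood the sites at PREP (chr6:105773955-105774544), with scores of 51.5 for H3T6ph, 57.8 for LNCaP LSD1 and 51.1 for VCaP LSD1, and those at RSPH9 and ZKSCAN5. A further low site lay 28.7 kb from KLF4 (chr9:110217630-110218426), an epithelial transcription factor gene.

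Some bases lay in all 3 peaks at each of the 330 sites, with a median of 510 bases (lowest 55, highest 3345), and they made up 50% or more of the H3T6ph peak at 313 sites (94.8%). The H3T6ph peak lay wholly inside the LSD1 peak at 183 sites (55.5%) in LNCaP and at 278 (84.2%) in VCaP, and inside both at 163 (49.4%). The centres were a median of 85.0 bases apart for H3T6ph and LNCaP LSD1 and 110 bases apart for H3T6ph and VCaP LSD1. LSD1 peaks had a median width of 832 bases at shared sites and 727 bases elsewhere in LNCaP, and of 1042 bases at shared sites and 842 bases elsewhere in VCaP. H3T6ph peaks had 572 bases at shared sites and 440 bases where they met neither LSD1 list.

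The number of sites depended on the overlap asked for, and was 147 where each peak had to share 50% of its length. Under the 1-base rule, the smallest overlaps with LNCaP LSD1 were 55 bases at chr5:66511456-66511977, which lies 18838 bases from CD180, 173 bases at DNASE1 and TRAP1, and 183 bases at chr21:45768588-45769304. With VCaP LSD1 they were 89 bases at GRM7, 126 at SLC23A2 and 147 at GBE1. Just outside, an H3T6ph peak near TAMM41 (chr3:11812557-11813044) missed the nearest LNCaP LSD1 peak by 32 bases and a peak in ING3 (chr7:120590515-120590987) missed the nearest VCaP LSD1 peak by 36 bases. Within 500 bases of membership were 6 of the 804 peaks that lacked LNCaP LSD1 and 2 of the 338 that lacked VCaP LSD1.

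A smaller share of the shared sites than of the H3T6ph peaks with LSD1 in LNCaP alone lay inside genes. Gene intervals are those of the authors' expression table, which carry no strand and can join overlapping genes. Of the 330 sites, 134 (40.6%, interval 35.4 to 46.0) were inside one, against 54.4% (49.1 to 59.7) of the H3T6ph peaks with LNCaP LSD1 only (LNCaP-only), 46.3% (42.8 to 49.7) of those with VCaP LSD1 only (VCaP-only) and 49.2% (47.4 to 51.0) of those with neither. The interval of the shared sites lies below those of the LNCaP-only and neither classes and overlaps that of the VCaP-only class. The separation from the neither class is lost in 2 other settings, without the 17 sites near an empty stretch described below (42.8%, interval 37.4 to 48.3) and with 50% of each peak shared (39.5%, interval 31.9 to 47.5). In both, only the shared sites were recomputed, and the neither class was kept as first defined. Outside genes but within 20 kb were 68 shared sites (20.6%), against 13.0% of LNCaP-only, 19.5% of VCaP-only and 15.8% of the other peaks. Between 20 and 100 kb from a gene were 72 sites (21.8%), against 15.4% of LNCaP-only, 19.7% of VCaP-only and 18.8% of the other peaks. Beyond 100 kb were 56 sites (17.0%), against 17.2% of LNCaP-only, 14.6% of VCaP-only and 16.2% of the other peaks. Ends of gene intervals were close to few sites: 24 (7.27%) lay within 1 kb of one, against 6.51% of LNCaP-only, 9.20% of VCaP-only and 6.15% of the other peaks, and the interval of the shared sites (4.94 to 10.6) overlaps that of each other class. Peaks are not replicates, so the classes are set side by side by their counting intervals and without a test.

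**Figure D2:**
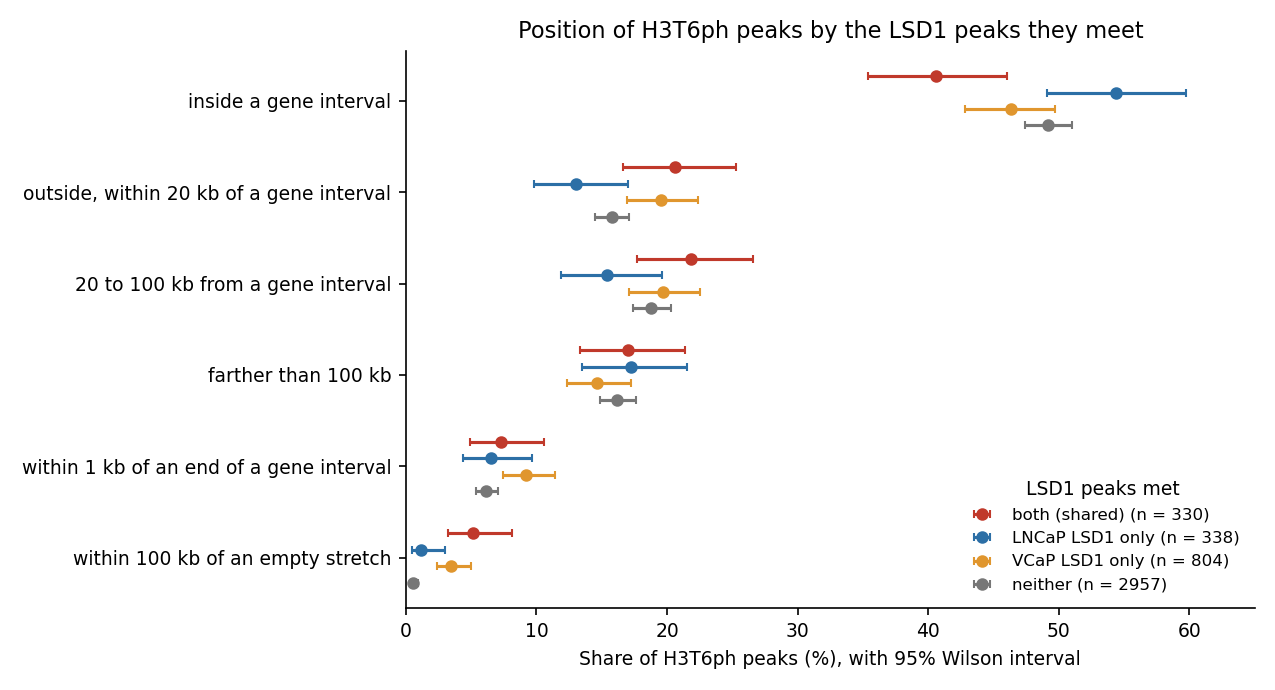
Share of H3T6ph peaks (percent, with 95% Wilson intervals) in each position relative to the gene intervals of the expression table, by the LSD1 peaks they met. Inside a gene interval the shared sites are at 40.6% and the LNCaP-only peaks at 54.4%, while near gene ends the interval of the shared sites overlaps the others.

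A set of shared sites bordered long empty stretches of chromosomes. An empty stretch was taken as the longest stretch of a chromosome with no peak of any list and no gene interval, where it reached 2.5 Mb, a measure chosen after seeing the data. It existed on 19 chromosomes, with lengths of 3.00 to 21.1 Mb. As background, the longest such stretch of a human chromosome in hg19 is often its unassembled centromere, and flanking sequence is rich in repeats. Within 100 kb of such a stretch lay 17 shared sites (5.15%, interval 3.24 to 8.09), against 4 LNCaP-only peaks (1.18%, 0.461 to 3.00), 28 VCaP-only peaks (3.48%, 2.42 to 4.99) and 17 of the peaks that met neither (0.575%, 0.359 to 0.919). The edges of a stretch are set by the peaks themselves, and at 6 of the 17 sites a peak of the site is that edge, so these shares are in part fixed by the positions that chose the sites and are given as description.

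These 17 sites had higher median scores than the other shared sites in each of the 3 lists. Their medians were 157 for H3T6ph, 193 for LNCaP LSD1 and 249 for VCaP LSD1, against medians of 77.9 for H3T6ph, 80.8 for LNCaP LSD1 and 77.8 for VCaP LSD1 at the other 313 sites. Their mean percentile over the lists had a median of 98.1 (lowest 76.2, highest 99.7), against 69.5 at the other sites. Chromosome 2 held 6 of them and chromosome 16 held 3. Without the 17, the share above the median of the H3T6ph list was 76.7%. Whether repeated sequence or read placement took part in the scores of these sites, or of the highest-ranked sites elsewhere, was not tested.

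The longest run of shared sites was on that flank of chromosome 2 (chr2:92268963-92306542), where 6 sites each lay within 10 kb of the next, 17.8 kb from the empty stretch and 138 kb from the nearest gene, the pseudogene ACTR3BP2. Their H3T6ph scores were 67.4, 89.5, 289, 157, 175 and 159 along the chromosome. In all, 12 sites in 4 runs had another within 10 kb, and 29 in 12 runs had another within 100 kb. A run of 2 sites lay 30.5 kb from NAMPT (chr7:105847198-105858211), the gene of the NAD salvage enzyme, 44793 kb from the empty stretch of its chromosome. The genes ANKRD28, EDC3 and CCDC57 held 2 shared sites each within 100 kb of one another. With LSD1 siRNA ANKRD28 was at 11.2, EDC3 at 21.6 and CCDC57 at 22.5 FPKM, against 12 for ANKRD28, 21.8 for EDC3 and 21.2 for CCDC57 with control siRNA. The 2 widest H3T6ph members lay outside genes. They spanned 4022 bases at chr6:58776115-58780136, which lies 488 kb from the nearest gene interval, and 2851 bases at chr4:68264051-68266901, which lies 71.1 kb from CENPC, a centromere protein gene. The site of 2047 bases at chr16:33962431-33964477 and the MIR663B and MIR663A sites were next in width.

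**Figure D3:**
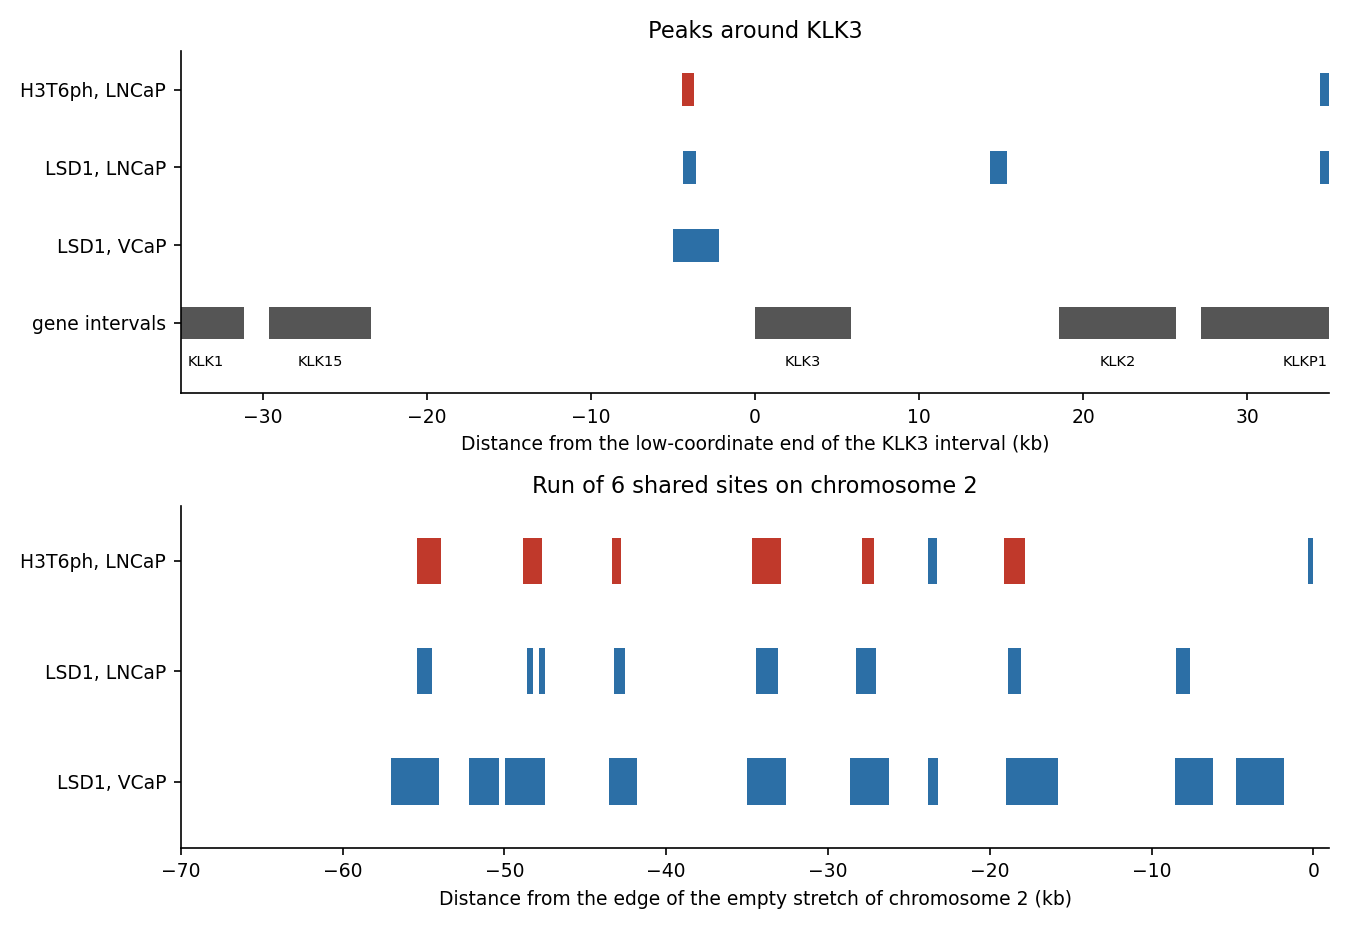
Peaks of the 3 lists around KLK3 (top, with gene intervals) and at the run of 6 shared sites on chromosome 2 (bottom, no gene interval in the window), with distance in kb on the horizontal axis. Red boxes are shared H3T6ph peaks and blue boxes all other peaks; at KLK3 a single shared site lies 3.69 kb to the low-coordinate side of the gene, and on chromosome 2 the LSD1 peaks of both lines repeat under each red box.

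Among genes that androgen induces, 7 of the 57 listed (12.3%, interval 6.08 to 23.2) had a shared site within 20 kb, against 1.45% of all 22554 genes and 1.65% of genes at 1 FPKM or more. The same list had LNCaP-only peaks near 6 genes (10.5%, against 1.58% of all genes), VCaP-only peaks near 9 (15.8%, against 3.71%) and peaks without LSD1 near 8 (14.0%, against 12.3%). A gene could count for more than 1 class. The gene lists here and below were chosen with earlier results of these data known, so their shares are description only. KLK3, which encodes prostate-specific antigen, had its site at chr19:51353697-51354477, 3.69 kb from the gene on its low-coordinate side. The scores there were 81.0 for H3T6ph, 58.5 for LNCaP LSD1 and 81.6 for VCaP LSD1. The LSD1 peak at this site spanned 51353751 to 51354592 in LNCaP and 51353180 to 51355973 in VCaP. KLK15, a neighbouring kallikrein gene, had the same site at 18.9 kb.

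The other 5 genes each had a site of their own. ZBTB16, the gene of the zinc finger repressor PLZF, held a site (chr11:114049685-114050526) with scores of 136, 140 and 86.3 for H3T6ph, LNCaP LSD1 and VCaP LSD1. ALDH1A3, a retinoic acid synthesis gene, held one at chr15:101437958-101438475 with scores of 86.2, 73.1 and 58.5. OTULINL, an OTU-family gene, held one at chr5:14588962-14589728 with scores of 73.9, 106 and 119. C1orf116 had one at 13.4 kb (chr1:207178086-207178500) and MAP7D1, a microtubule-associated protein gene, had one at 19.2 kb (chr1:36665632-36666065).

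Of these 7 genes, 6 had a lower value with LSD1 siRNA than with control siRNA in LNCaP. Each fold change sets LSD1 siRNA over control siRNA after adding 1 to the FPKM and taking log2, which understates low genes. KLK3 was at 1941 FPKM with LSD1 siRNA and 2474 FPKM with control siRNA, a log2 fold change of -0.35. OTULINL was at 8.82 FPKM with LSD1 siRNA and 18.7 FPKM with control siRNA, a log2 fold change of -1.0. With LSD1 siRNA ALDH1A3 was at 53.4, C1orf116 at 44.2, MAP7D1 at 60.8, ZBTB16 at 36.3 and KLK15 at 2.47 FPKM. With control siRNA ALDH1A3 was at 64.7, C1orf116 at 58.6, MAP7D1 at 73.3, ZBTB16 at 38.2 and KLK15 at 2.26 FPKM. OTULINL was the one member of the 7 past 1.5-fold. Of the whole list, 47 of 57 genes were lower by some amount, 14 were lower by 1.5-fold or more and 0 were higher by 1.5-fold or more, with a median of -0.35. The luminal prostate markers, of which 6 of 9 are also in this list, were lower in 9 of 9 with a median of -0.36, and their part in the values of the list was not tested. Among all genes compared, 52.7% were lower by some amount, 2.38% were lower by 1.5-fold or more and 1.92% were higher by 1.5-fold or more, with a median of -0.01. Because the list was chosen with earlier results of these data known, its contrast with all genes is description only.

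The other lists had few or no shared sites. KDM4B, a histone demethylase gene, was the one of 33 transcriptional cofactors and lineage factors with a site within 20 kb (chr19:4991657-4992463, inside the gene), at 56.5 FPKM with LSD1 siRNA and 48.5 FPKM with control siRNA. None of 26 genes of LSD1 complexes (interval up to 12.9%), of 12 protein kinase C family genes (up to 24.2%), of 17 genes lowered by androgen (up to 18.4%) or of 8 basal markers (up to 32.4%) had one. KLK3 was the one of 9 luminal markers with a site.

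Near shared sites, 14 of the genes compared were past 1.5-fold between the libraries, 9 of them lower with LSD1 siRNA. A gene was near when a site lay within 20 kb of its interval. This held for 328 genes, 275 of them protein-coding, 27 lncRNA, 18 microRNA, 5 transcribed pseudogene and 3 snoRNA genes. Where an interval joins several genes, a gene in it can itself lie farther from the site. Of the 328, 211 were at 1 FPKM or more in either library and were compared, as were 12752 of all genes. The median was -0.03 for genes near shared sites (order-statistic 95% interval -0.08 to 0.03), against -0.01 for all genes compared. Higher by 1.5-fold or more were 5 genes (2.37%, interval 1.02 to 5.43), against 1.92% of all genes. Lower by 1.5-fold or more were 9 (4.27%, interval 2.26 to 7.91), against 2.38%. Past 2-fold were 3 genes higher (1.42%, against 0.847% of all) and 1 lower (0.474%, against 1.13%). Each of these shares over all genes lies inside the interval of the genes near shared sites. Among the 196 protein-coding genes near shared sites, 4 were higher by 1.5-fold or more (2.04%, interval 0.796 to 5.13), against 1.04% of all protein-coding genes compared. Lower by 1.5-fold or more were 7 of the 196 (3.57%, interval 1.74 to 7.19), against 1.17% of all protein-coding genes, a share below that interval. The same decrease was found for 8 of 221 protein-coding genes near LNCaP-only peaks (3.62%, interval 1.85 to 6.98) and 11 of 472 near VCaP-only peaks (2.33%, interval 1.31 to 4.12), both of which overlap the interval near shared sites. Near the H3T6ph peaks that met neither it was found for 11 of 1475 (0.746%, interval 0.417 to 1.33), below the interval near shared sites. A gene near peaks of more than 1 class was counted in each, so these groups are not separate sets of genes. Past 2-fold, 2 of the 196 were higher (1.02%, interval 0.280 to 3.64), against 0.112% of all protein-coding genes, a share below the interval, and 1 was lower (0.510%, interval 0.0901 to 2.83), against 0.129%. Genes are not replicates, 1 library per group gives no replicate check, and no test was run.

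By distance from the interval to the site, the median log2 fold change was -0.03 for 111 genes with a site inside or across their interval. It was 0.01 for 45 genes at up to 10 kb and -0.05 for 55 genes at 10 to 20 kb. The median control level was 12.7 FPKM near shared sites (interval 10.9 to 15.7) and 12.7 FPKM for all genes compared.

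**Figure D4:**
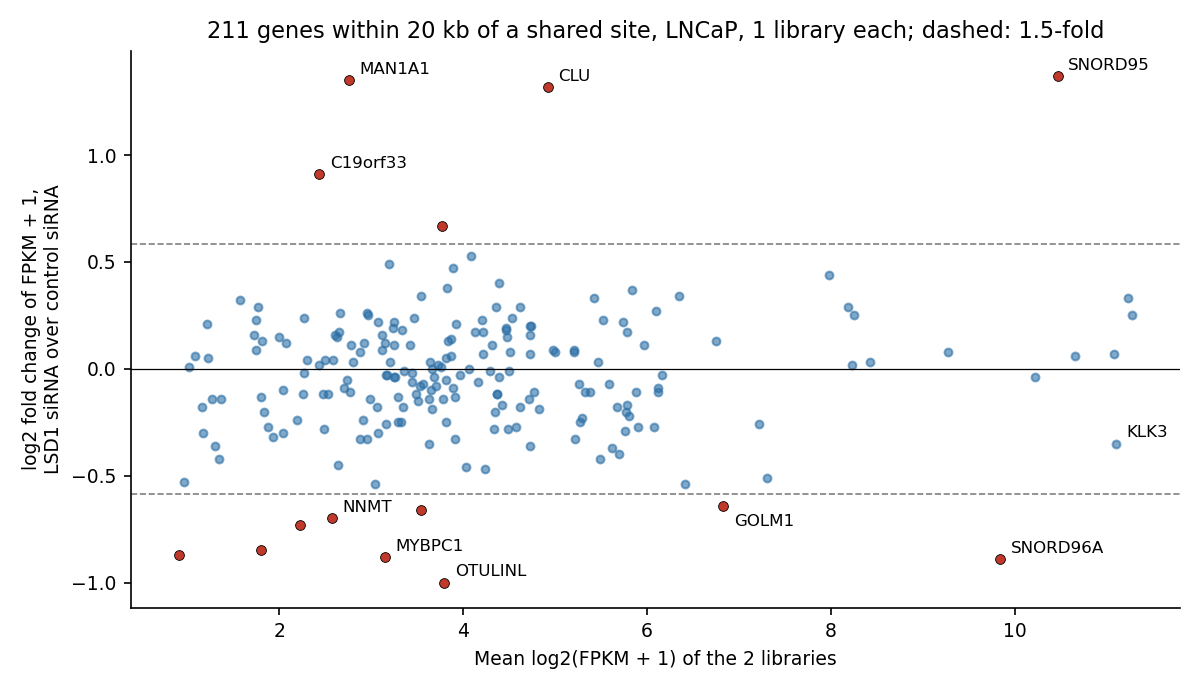
Log2 fold change of FPKM + 1, LSD1 siRNA over control siRNA (vertical axis), against the mean log2(FPKM + 1) of both libraries (horizontal axis) for the 211 genes within 20 kb of a shared site. Red points are the 14 genes past 1.5-fold (dashed lines), 5 higher and 9 lower, and most points lie around 0.

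MAN1A1, a Golgi mannosidase gene, was at 9.79 FPKM with LSD1 siRNA and 3.23 FPKM with control siRNA, a log2 fold change of 1.35. Its site (chr6:119558186-119558904) was inside the gene and scored 443 for H3T6ph, 79.9 for LNCaP LSD1 and 973 for VCaP LSD1. CLU, which encodes the chaperone clusterin, was at 47.0 FPKM with LSD1 siRNA and 18.2 FPKM with control siRNA, a log2 fold change of 1.32. Its site (chr8:27453288-27453832) lay 0.601 kb from the gene on its low-coordinate side.

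C19orf33 was at 6.41 FPKM with LSD1 siRNA and 2.95 FPKM with control siRNA. With LSD1 siRNA DNASE1, an endonuclease gene, was at 19.4 FPKM, MMP24, a membrane-type metalloproteinase gene, at 9.83, CBR3-AS1 at 16.5, RNF208 at 23.2 and the microRNA gene MIR3936 at 294 FPKM. With control siRNA DNASE1 was at 13.1, MMP24 at 6.69, CBR3-AS1 at 11.6, RNF208 at 17.3 and MIR3936 at 216 FPKM. These 5 were under 1.5-fold, and the snoRNA gene SNORD95 was also among the 10 largest increases. Several of these genes share an interval with others: C19orf33 with YIF1B, DNASE1 with TRAP1, CBR3-AS1 with CBR3, and MIR3936 with SLC22A4 and SLC22A5. Where such genes overlap, their reads cannot be told apart without strand.

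OTULINL, given above, had the largest decrease near shared sites on the log2(FPKM + 1) scale, while SNORD17 and C8orf44-SGK3, at low levels given below, had larger ratios of FPKM. MYBPC1, the slow skeletal myosin-binding protein C gene, was at 5.53 FPKM with LSD1 siRNA and 11.0 FPKM with control siRNA, a log2 fold change of -0.88, with a site inside the gene (chr12:102002196-102002723). NNMT, the nicotinamide methyltransferase gene, was at 3.68 FPKM with LSD1 siRNA and 6.61 FPKM with control siRNA, a log2 fold change of -0.70. GOLM1, a Golgi membrane protein gene, was at 90.5 FPKM with LSD1 siRNA and 141 FPKM with control siRNA, a log2 fold change of -0.64, with a site inside it (chr9:88669543-88670081).

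GPATCH4 was at 8.25 FPKM with LSD1 siRNA and 13.6 FPKM with control siRNA. SLC16A6, of the monocarboxylate transporter family, was at 2.63 FPKM with LSD1 siRNA and 5.02 FPKM with control siRNA. It shares its gene interval and its site with ARSG, a lysosomal sulfatase gene at 5.82 FPKM with LSD1 siRNA and 8.95 FPKM with control siRNA, and reads of overlapping genes cannot be told apart without strand. SEC61A1, a subunit of the endoplasmic reticulum translocon, was at 132 FPKM with LSD1 siRNA and 188 FPKM with control siRNA. ARSG and SEC61A1 were under 1.5-fold on the log2(FPKM + 1) scale, though the plain FPKM of ARSG differ by slightly more than that.

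A pair of snoRNA genes near the same site (chr5:180690460-180691087) had opposite signs. SNORD95 was at 2277 FPKM with LSD1 siRNA and 880 FPKM with control siRNA, and SNORD96A was at 673 FPKM with LSD1 siRNA and 1247 FPKM with control siRNA. Both lie in RACK1, a ribosomal scaffold gene, which was at 1172 FPKM with LSD1 siRNA and 1208 FPKM with control siRNA. Genes under 300 bases are poorly measured per length in such libraries, and 3 of the 14 genes past 1.5-fold are of this kind. They were placed by the interval of a longer gene, RACK1 for SNORD95 and SNORD96A and SNX5 for SNORD17. The edge of that interval is 19.6 kb from the site for RACK1 and 12.4 kb for SNX5. The snoRNA genes themselves can therefore lie beyond 20 kb. The genes past 1.5-fold also held SNORD17, at 1.59 FPKM with LSD1 siRNA and 3.68 FPKM with control siRNA. Another was the readthrough gene C8orf44-SGK3, at 0.388 FPKM with LSD1 siRNA and 1.53 FPKM with control siRNA. It shares its interval with SGK3, at 8.21 FPKM with LSD1 siRNA and 9.92 FPKM with control siRNA. The authors' deposited table called 3 of the 211 genes changed (1.42%, against 0.918% of all), MAN1A1, CLU and OTULINL, with lowest q-values of 1.57e-07, 2.47e-07 and 0.00027.

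**Figure D5:**
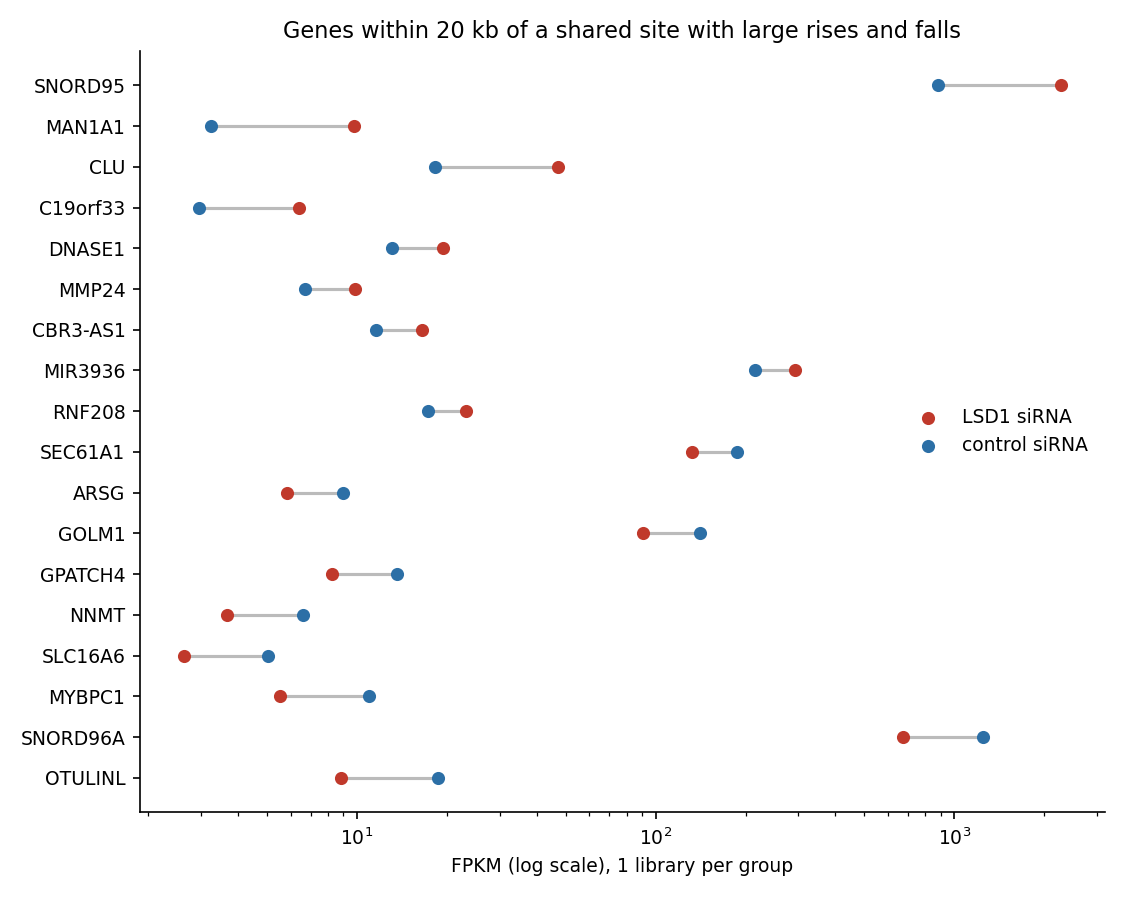
FPKM on a log axis, LSD1 siRNA and control siRNA joined by a line, for genes from the 10 largest increases and 10 largest decreases within 20 kb of a shared site at 5 FPKM or more. With LSD1 siRNA MAN1A1 is at 9.79 and OTULINL at 8.82 FPKM, against 3.23 for MAN1A1 and 18.7 for OTULINL with control siRNA, with 1 library per group.

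Of the 32 genes with a shared site within 1 kb of an end of their interval, CLU, given above, was among those past 1.5-fold. The end can be either end of the interval, since the intervals carry no strand, and a joined interval can end at another gene. Of the genes with values in this paragraph, a start at the site was matched for POLG alone. G6PC3, a glucose-6-phosphatase gene, was at 43.8 FPKM with LSD1 siRNA and 43.0 FPKM with control siRNA. With LSD1 siRNA CHCHD5 was at 36.9 FPKM and CBR1, a carbonyl reductase gene, at 37.1, against 34.9 for CHCHD5 and 34.8 for CBR1 with control siRNA. CBR1 is 3141 bases long and shares its interval with the lncRNA gene CBR1-AS1, of 56999 bases. The end at the site was matched as the start of CBR1-AS1, so it need not be an end of CBR1. RAB21, an endosomal GTPase gene, was at 24.1 FPKM with LSD1 siRNA and 26.7 FPKM with control siRNA. With LSD1 siRNA BCL9, a Wnt coactivator gene, was at 15.7, POLG, the mitochondrial DNA polymerase gene, at 13.9 and CYSRT1 at 12.6 FPKM, against 15.7 for BCL9, 13.3 for POLG and 12.5 for CYSRT1 with control siRNA. CLU and the short gene MIR663A, at 63.7 FPKM with LSD1 siRNA and 49.3 FPKM with control siRNA, were also among the 10 with the highest control level.

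Of the genes whose promoters are printed above, MTF2 was at 10.1 FPKM with LSD1 siRNA and 9.33 FPKM with control siRNA. TMTC3 was at 8.27 FPKM with LSD1 siRNA and 7.53 FPKM with control siRNA. CDHR3, whose promoter held AGAACA, was at 0.205 FPKM with LSD1 siRNA and 0.159 FPKM with control siRNA, under the level for comparison. The site of TMTC3 also reaches the interval of CEP290, a ciliary gene at 6.05 FPKM with LSD1 siRNA and 5.89 FPKM with control siRNA.

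A further 3 genes with a site across an end were picked with their values already known. The intervals do not say which end is the start. TFF1 and CLDN8 had no promoter entry, so their starts could not be compared with the site, and no start was matched for HDAC5. TFF1, the trefoil factor gene, was at 9.26 FPKM with LSD1 siRNA and 7.78 FPKM with control siRNA, with its site at chr21:43786328-43787234. CLDN8, a tight junction gene, was at 8.11 FPKM with LSD1 siRNA and 6.80 FPKM with control siRNA, with its site at chr21:31588211-31588956. HDAC5, a histone deacetylase gene, was at 8.88 FPKM with LSD1 siRNA and 8.16 FPKM with control siRNA.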

How the data were processed

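Human prostate cancer cells gave 3 ChIP-seq peak lists, 1 per sample, and 2 RNA-seq libraries. Per the submitters' processing notes, Bowtie2 2.0.0, TopHat2 2.0.4, MACS2 (no version), Cuffdiff 2.0.1 and the build hg19 were used. Per the labels' protocols, ChIP libraries were made with ThruPLEX-FD and RNA libraries with TruSeq RNA v2, which does not mark strand. The authors deposited a score per peak, with a scale, control track and duplicate handling not given in the sources used here. Expression was deposited as FPKM per RefSeq accession, and the same deposited table holds the authors' p-value and q-value per accession.

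Peaks shared a site at 1 base or more, a count that bedtools 2.31.1 also gave. Positions are 1-based. FPKM was summed per symbol over 38934 of 40253 accessions (96.7%) that matched RefSeq's table of GRCh38.p14, used for names, types and lengths, and 42 genes with a failed value were left out. Genes that reached 1 FPKM in at least 1 library were compared as log2(FPKM + 1). With 1 library per group there was no test across genes and no replicate check, and genes were counted past 1.5-fold and 2-fold. Shares carry 95% Wilson intervals. The overlap and distance steps were checked on simulated data with known answers (pandas 2.3.3, numpy 2.4.6, scipy 1.17.1). No genome of the build hg19 was used, so sequences of the peaks are not shown.

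Named were the 10 highest and 5 lowest sites by mean percentile, the 5 widest, sites near listed genes, the 10 largest increases and decreases within 20 kb at 5 FPKM or more, the 10 gene-end genes with the highest control FPKM, and KDM1A. Beside them stand genes past 1.5-fold, runs, promoters and others said to be chosen later. The members and gene lists were chosen with earlier results of these data known. The gene lists are androgen-induced genes, genes lowered by androgen, LSD1 complexes, transcriptional cofactors and lineage factors, protein kinase C family genes, and luminal and basal markers. Genes on chromosome Y and some results that these rules take in are not reported here.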

Additional observations from a re-analysis of the deposited data

How the results depend on the processing

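No paired analysis was possible because each group holds 1 sample and no values came from a test. Of 55 alternatives, 49 kept a count within 1.5 times the reported one, or a share or median inside the 95% interval of the reported one, and 6 moved a value. The number of shared sites was 147 where each peak had to share 50% of its length, 161 with the higher-scoring 50% of each list and 166 with as many top-scoring peaks as the shortest list holds, against 330 as reported, and it was 338 with LSD1 peaks within 500 bases. The share inside a gene was 30.6% with genes at 1 FPKM or more in the control library. The share near a gene end was 16.1% with an end within 5 kb. Runs held 29 sites with neighbours within 100 kb. No direction turned round. The alternatives without sites near an empty stretch, with genes of 300 bases or more and with list genes at 1 FPKM or more were chosen after seeing the data. The unknown depth of the peak lists and the single library per group limit every comparison.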

Other observations

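Some of the most abundant transcripts of LNCaP had a shared site in or within 20 kb of their gene interval, named here after their values were seen. GDF15, the gene of a stress-induced cytokine, had a site at 5.57 kb (chr19:18490876-18491400) and was at 2703 FPKM with LSD1 siRNA and 2156 FPKM with control siRNA, a log2 fold change of 0.33. RPLP1, a ribosomal protein gene, was at 2222 FPKM with LSD1 siRNA and 2122 FPKM with control siRNA. RPL31, another, was at 1651 FPKM with LSD1 siRNA and 1583 FPKM with control siRNA. It shares its interval with TBC1D8, and the site lies inside, 70645 bases from the nearest end. The distance of the site from RPL31 itself was not measured and can be over 20 kb. FAM162A was at 637 FPKM with LSD1 siRNA and 603 FPKM with control siRNA. S100A11, a calcium-binding protein gene, was at 348 FPKM with LSD1 siRNA and 340 FPKM with control siRNA. SPINT2, a serine protease inhibitor gene with a site inside it, was at 322 FPKM with LSD1 siRNA and 263 FPKM with control siRNA. DDIT4, a stress-response gene with a site at 18.3 kb, was at 332 FPKM with LSD1 siRNA and 280 FPKM with control siRNA. These 7 genes stayed under 1.5-fold, as did most genes: of all genes compared, 1.92% were higher and 2.38% lower by 1.5-fold or more. The share of abundant genes with a site was not counted. The median control level was 12.7 FPKM both near shared sites and over all genes compared.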
